A study of Mus musculus with 2 samples.

Results

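The genes followed here are the 6 that encode the core of major histocompatibility complex (MHC) class II antigen presentation in the mouse. H2-Aa, H2-Ab1 and H2-Eb1 encode class II chains, Cd74 encodes the invariant chain, and H2-DMa and H2-DMb1 encode the peptide exchange factor H2-DM. They were chosen by symbol, and all 6 of 6 had 1 row each among the 27998 genes counted in both libraries. Their messenger RNA was counted in single cells sorted for the red fluorescent protein tdTomato from mouse spinal cord. The strain was Cx3cr1-CreER::Rosa26-tdTomato and its background C57BL/6J, so that 4-hydroxytamoxifen activates Cre in cells that express the fractalkine receptor Cx3cr1, which include microglia, the macrophages at the borders of the central nervous system, and blood monocytes at the time of injection. In both groups the drug was injected 2 times, 1 mg each, in postnatal week 4, and cords were collected 4 weeks later. There were 2 libraries. The injured library came from cord 5 days after lysolecithin, a lipid that dissolves myelin, and the uninjured library came from age-matched cord. The labels do not give the number of animals pooled in either library.

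MHC class II molecules display peptides taken up from outside the cell to helper T cells. An alpha and a beta chain pair in the endoplasmic reticulum around the invariant chain, which fills the groove and guides the pair to endosomes. Cathepsin S trims the invariant chain to a short remnant, and H2-DM exchanges that remnant for a peptide. In the healthy brain and spinal cord, microglia carry little class II on their surface, while part of the macrophages of the meninges and vessel walls carry much. H2-Aa and H2-Ab1 are the alpha and beta chains of the I-A molecule. H2-Eb1 is the beta chain of I-E, and C57BL/6 mice make no I-E because their alpha chain gene for it is not functional, so an H2-Eb1 transcript in these cells has no partner chain. Cd74 also acts at the cell surface as a receptor for the cytokine Mif.

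Class II genes are switched on through a shared promoter module, in which an X box and, downstream, a Y box bind the factors that recruit the coactivator Ciita. The windows below show that module in members from each of the H2-A, H2-E and H2-DM groups. They run from 250 bases before to 50 bases after the RefSeq start of the gene, on the gene's strand, in build GRCm38.p6 on chromosome 17. Capitals mark the letters GNAAC, inside the X box, followed by TGATTGG, the Y box. These letters were chosen after the windows had been read.
H2-Aa, chr17:34287774-34288073, minus strand: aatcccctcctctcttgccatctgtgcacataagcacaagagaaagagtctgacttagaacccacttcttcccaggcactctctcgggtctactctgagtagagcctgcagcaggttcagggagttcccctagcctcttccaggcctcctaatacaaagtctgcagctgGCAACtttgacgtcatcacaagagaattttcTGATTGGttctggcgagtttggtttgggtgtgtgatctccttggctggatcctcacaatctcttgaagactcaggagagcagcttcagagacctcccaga
H2-Eb1, chr17:34305617-34305916, plus strand: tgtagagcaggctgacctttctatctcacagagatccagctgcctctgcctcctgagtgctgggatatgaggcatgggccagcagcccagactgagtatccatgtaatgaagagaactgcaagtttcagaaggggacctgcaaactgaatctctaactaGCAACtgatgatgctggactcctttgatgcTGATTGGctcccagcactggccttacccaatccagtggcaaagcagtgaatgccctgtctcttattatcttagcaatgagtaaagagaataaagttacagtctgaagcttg
H2-DMb1, chr17:34152941-34153240, plus strand: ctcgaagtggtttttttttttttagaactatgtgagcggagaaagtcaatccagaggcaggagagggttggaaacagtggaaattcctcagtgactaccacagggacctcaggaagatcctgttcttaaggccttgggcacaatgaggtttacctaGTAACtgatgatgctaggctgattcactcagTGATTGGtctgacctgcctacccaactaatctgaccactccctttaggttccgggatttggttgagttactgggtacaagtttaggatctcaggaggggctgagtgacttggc
The start of GNAAC lay 31 bases before the start of TGATTGG in H2-Aa, 30 in H2-Eb1 and 31 in H2-DMb1. Both strands of all 32851 promoter windows in the RefSeq table were searched. GNAAC was found in 84.8% of them, TGATTGG in 7.82%, and the pair, starting 20 to 45 bases apart, in 0.715%. Both windows of H2-DMa lacked the pair, and H2-Ab1 and Cd74 had no entry. A match is a description of letters, not a tested site. In the GENCODE annotation of GRCm38 the class II members lie within one stretch of chromosome 17, in the order H2-DMa (34119541 to 34139101), H2-DMb1 (34153072 to 34160230), H2-Ab1 (34257689 to 34269419), H2-Aa (34282744 to 34287823, minus strand) and H2-Eb1 (34305867 to 34316674).

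Counts are of unique molecular identifiers (UMIs), each standing for 1 captured transcript. After filtering, 577 injured cells remained, at a median of 4396 UMIs per cell, and 695 uninjured cells, at a median of 3003. The libraries shared 0 cell barcodes. Levels are given as CPM, a gene's UMIs scaled to all UMIs of the cells named, with exact 95% Poisson intervals. Ratios are log2 of injured over uninjured CPM, with the exact 95% interval for a ratio of counts. With 1 library per group there is no test and no replicate check, and every interval covers counting error only. Values are given for all cells and again without cells that hold 3 or more UMIs summed over Mrc1, Pf4, Ms4a7 and F13a1, genes that mark border macrophages. These marker cells numbered 41 of 577 (7.11%) in the injured library and 9 of 695 (1.29%) in the uninjured library. The gate is a UMI cut-off on unthinned cells, so deeper cells pass it more easily. Median UMIs in marker cells and in the others were 6609 and 4318 in the injured library, and 3705 and 2991 in the uninjured one. The 2 shares are therefore not read as a difference in abundance. Over the 10 genes of a microglia list, the remaining cells held 16490 CPM in the injured and 26622 CPM in the uninjured library, and all 10 were detected in both. T cell genes (Cd3e, Cd3d, Cd3g and Cd8a) were at 0 UMIs in both libraries.

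Over all cells, every class II member was lower in the injured library than in the uninjured one. H2-Aa had 17 UMIs in injured and 214 in uninjured cells, a log2 ratio of −4.22 (−5.02 to −3.51). H2-Ab1 had 114 UMIs in injured and 378 in uninjured cells, at −2.29 (−2.61 to −1.99). H2-Eb1 had 8 UMIs in injured and 218 in uninjured cells, at −5.33 (−6.56 to −4.33). The sum of these 3 chains, which is called the class II chains here, was 44.9 CPM (37.7 to 53.0) in the injured and 387 CPM (361 to 415) in the uninjured library, 8.62-fold lower. Cd74 stood at 339 CPM in injured and 878 CPM in uninjured cells, at −1.37 (−1.48 to −1.26). H2-DMa stood at 349 CPM in injured and 499 CPM in uninjured cells, at −0.52 (−0.64 to −0.39). H2-DMb1 stood at 134 CPM in injured and 190 CPM in uninjured cells, at −0.50 (−0.71 to −0.30). Thus 4 of 6 members were at least 2-fold lower and 0 of 6 at least 2-fold higher. Of the 9066 genes with at least 20 UMIs over both libraries, 11.5% were at least 2-fold lower and 7.22% at least 2-fold higher. The median log2 ratio was −1.83 over the members and −0.15 over all measured genes.

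Without the marker cells, most of that difference was gone for the chains and its sign turned for Cd74. H2-Ab1 was at 0.02 (−0.42 to 0.47), H2-Aa at −0.90 (−2.17 to 0.32) and H2-Eb1 at −2.22 (−4.02 to −0.73), with 5 UMIs in injured and 17 in uninjured cells. With the cell of most UMIs of the gene left out of each library as well, H2-Aa was at −2.16 and H2-Ab1 at −0.09. Of the 11 injured H2-Aa UMIs, 7 lay in 1 cell. The class II chains together were at 43.2 CPM (35.8 to 51.5) in the injured and 52.5 CPM (43.0 to 63.3) in the uninjured library, a ratio of −0.28 (−0.67 to 0.11) whose interval includes 0. Cd74 was higher in the injured library, with 347 CPM (325 to 369) against 269 CPM (247 to 292) in the uninjured one, at 0.37 (0.22 to 0.52). The H2-DM genes stayed close to their values over all cells, with H2-DMa at −0.50 (−0.63 to −0.38) and H2-DMb1 at −0.40 (−0.61 to −0.19). Only H2-Eb1, 1 of 6 members, was at least 2-fold lower, beside 11.3% of the 8951 genes measured in these cells. No member, 0 of 6, was at least 2-fold higher, beside 7.06% of those genes. The members' median was −0.45, and that of all measured genes −0.14. These values depend on where the gate is set: with only cells of 5 or more gate UMIs left out, which returns 1 uninjured cell of 4 gate UMIs to the sum, the class II chains were at −2.20 and Cd74 at −0.30.

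**Figure D1:**
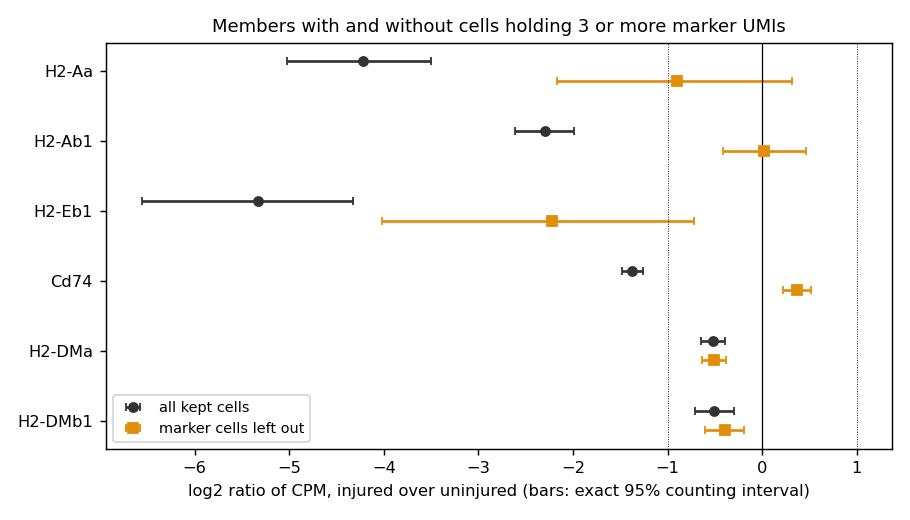
Log2 ratio of CPM, injured over uninjured (x axis), for each of the 6 members (rows), over all kept cells (dark circles) and with marker cells left out (orange squares). Bars are exact 95% counting intervals and dotted lines mark 2-fold. The points of the chains and of Cd74 lie far apart (Cd74 at −1.37 and 0.37), while those of H2-DMa and H2-DMb1 nearly coincide.

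The uninjured class II signal sat in a handful of cells. The 9 uninjured marker cells, 1.63% of that library's UMIs, held 86.7% (84.1 to 88.9) of its class II chain UMIs and 69.9% (67.7 to 72.0) of its Cd74 UMIs. In cells ranked by class II chain UMIs, the first 7 of the uninjured library were all marker cells. They held 290, 137, 94, 91, 39, 29 and 11 class II chain UMIs, and the other 2 marker cells held 9 and 2. All 3 chains were detected together in 8 of the 9. Cd74 followed the same cells, with 312, 354, 172, 193, 111, 65, 50, 22 and 5 UMIs in the same order. Across these 9 cells the levels therefore ran from 2 to 290 chain UMIs, so that the sum leaned on the first cell, which held 41.3% of it. That cell had 68 H2-Aa, 129 H2-Ab1 and 93 H2-Eb1 UMIs. It also had 6 UMIs of Ccr2, a chemokine receptor of blood monocytes and of some macrophages and dendritic cells, the only Ccr2 UMIs among the 9, and 4 UMIs of the gate genes.

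Set against the other 686 cells of the same library, the uninjured marker cells had 20619 CPM of class II chains, against 52.5 CPM, a 393-fold difference (321 to 486). Cd74 stood at 37713 CPM in the marker cells and 269 CPM in the others, 140-fold (127 to 155). H2-DMb1 stood at 793 CPM in the marker cells and 180 CPM in the others, 4.41-fold (2.87 to 6.53). H2-DMa stood at 705 CPM in the marker cells and 495 CPM in the others, 1.42-fold (0.91 to 2.13), an interval that includes 1. The chains and Cd74 thus set these cells apart by far larger factors than the H2-DM genes did.

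The injured marker cells did not show levels of this size. Their 41 cells, with a median of 6609 UMIs against 3705 in the uninjured marker cells, held 17 class II chain UMIs in all, in 9 cells, with at most 5 in any cell. Their level was 63.4 CPM (36.9 to 101) against 20619 CPM in the uninjured marker cells, a log2 ratio of −8.35 (−9.13 to −7.66). Cd74 stood at 261 CPM in injured and 37713 CPM in uninjured marker cells, at −7.17 (−7.54 to −6.83). H2-DMa stood at 343 CPM in injured and 705 CPM in uninjured marker cells, at −1.04 (−1.70 to −0.33). H2-DMb1 stood at 104 CPM in injured and 793 CPM in uninjured marker cells, at −2.93 (−3.74 to −2.11). Against the other cells of their own library, the injured marker cells were at 1.47-fold (0.83 to 2.45) for the summed chains and 0.75-fold (0.58 to 0.96) for Cd74. The chains differed. H2-Ab1 was at 0.80-fold (0.33 to 1.63), H2-Aa at 5.75-fold (1.75 to 17.0) and H2-Eb1 at 6.33-fold (0.98 to 32.5). The last 2 rest on 6 and 3 UMIs in marker cells. Marker cells held 12.2% of the injured library's summed chain UMIs, beside 8.66% of all its UMIs. By gene the share was 7.02% for H2-Ab1, 35.3% for H2-Aa and 37.5% for H2-Eb1.

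**Figure D2:**
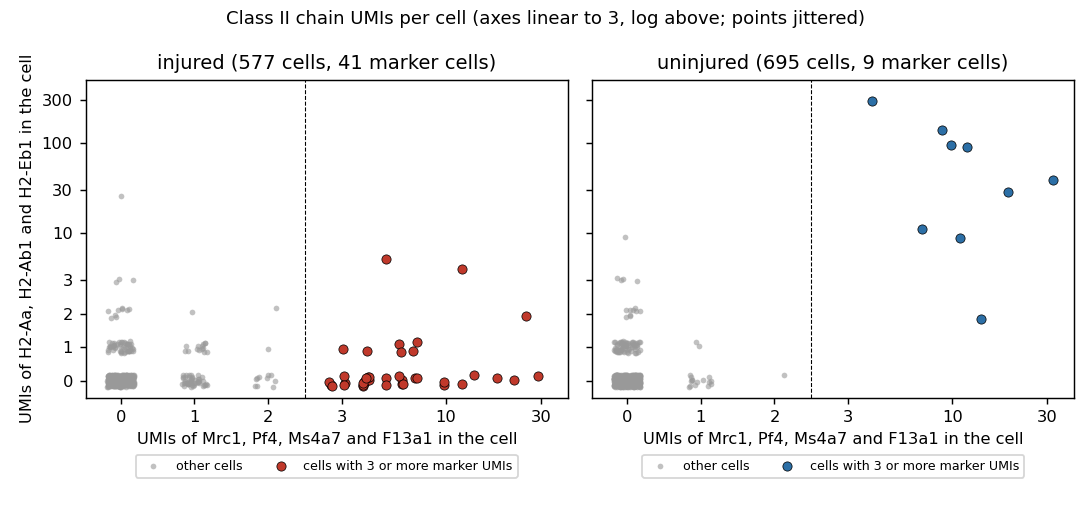
Each point is 1 cell of the injured (left) or uninjured (right) library, placed by its UMIs of the 4 gate genes (x axis) and of the 3 class II chains (y axis); both axes are linear to 3 and logarithmic above, with points jittered. Filled points right of the dashed line are marker cells: the 41 injured ones hold 0 to 5 chain UMIs, and the 9 uninjured ones 2 to 290. The highest injured point, at 26 chain UMIs, has 0 gate UMIs.

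The same gate picked cells of unlike make-up in the 2 libraries. The microglia list summed to 10933 CPM in injured and 1939 CPM in uninjured marker cells. Sall1 and Siglech, both microglial, were at 0 UMIs in the uninjured marker cells. Ms4a7 supplied 196 of the gate UMIs in injured and 27 in uninjured marker cells, while the mannose receptor gene Mrc1 was detected in 5 of 41 injured and 7 of 9 uninjured marker cells. The border macrophage list has 11 genes, 4 of which chose these cells. Of the other 7, 6 were detected in the injured marker cells, where Cd163 was at 0, and 7 in the uninjured ones. These 7 genes gave 67 UMIs or 250 CPM (194 to 317) in injured and 47 UMIs or 1380 CPM (1014 to 1836) in uninjured marker cells. Of 10 dendritic cell genes only Clec10a was detected in marker cells, with 2 UMIs in the injured and 4 in the uninjured library. Of 6 monocyte genes, Ccr2 gave 13 UMIs in injured and 6 in uninjured marker cells, Chil3 gave 3 in injured and 0 in uninjured ones, and the other 4 were at 0. The part of these differences in the class II ratio was not tested.

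The class II chains were also counted in narrower cuts of the marker cells, which do not test what the make-up of these cells contributes. With fewer than 10 microglia list UMIs per 1000, a cut chosen after the values were seen, 23 of 41 injured and 9 of 9 uninjured marker cells remained, with 103 CPM of class II chains in the injured and 20619 CPM in the uninjured ones. Among marker cells with an Mrc1 UMI, 5 injured cells held 1 chain UMI and 7 uninjured cells held 582, of which 290 lay in 1 cell. Among those with neither a P2ry12 nor a Tmem119 UMI, both microglial, 9 injured cells held 10 chain UMIs and 4 uninjured cells held 299. At the edge of the gate, the 12 injured cells with 2 gate UMIs held 3 chain UMIs and the 7 with 3 held 1. In the uninjured library, 1 cell had 2 gate UMIs, with 0 chain UMIs, 0 cells had 3, and the 1 with 4 was the cell of 290.

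**Figure D3:**
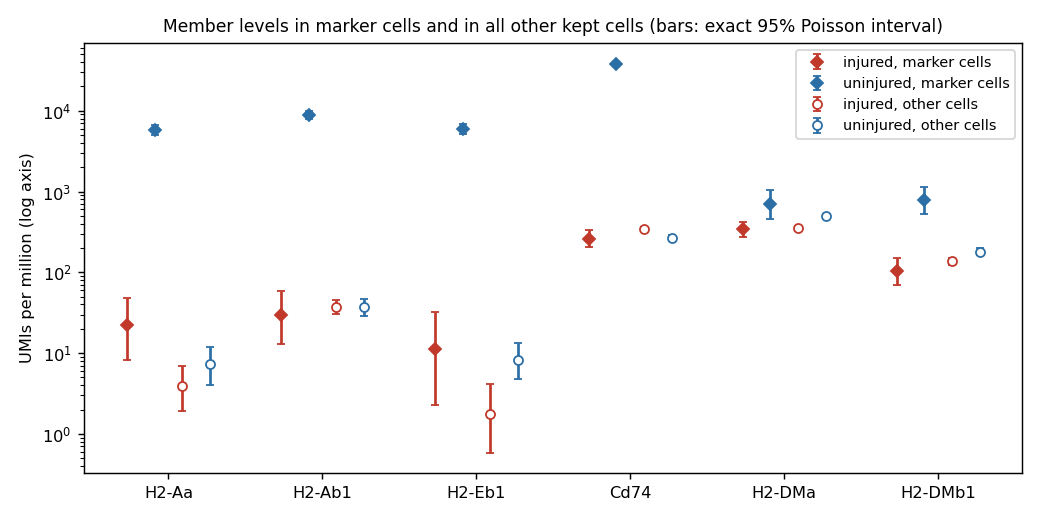
CPM on a logarithmic axis for each member in injured (red) and uninjured (blue) cells, with filled diamonds for marker cells and open circles for all other kept cells; bars are exact 95% Poisson intervals. The uninjured marker cells stand at 5845 to 37713 CPM for the chains and Cd74, far above the other 3 groups of cells, while all 4 groups lie closer together for H2-DMa.

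Outside the marker cells, the chains were sparse in both libraries. At least 1 chain UMI was found in 80 of 536 injured cells (14.9%) and 83 of 686 uninjured cells (12.1%). A single chain gene was seen in 78 of these injured and 77 of these uninjured cells. After each cell was thinned to 1500 UMIs to even out depth, the shares were 5.12% (3.40 to 7.37) of 527 injured and 7.72% (5.71 to 10.2) of 596 uninjured cells, overlapping intervals in the other order. H2-Ab1 was the chain seen most, with 106 UMIs in 74 injured cells and 76 UMIs in 58 uninjured cells. H2-Aa was found in 5 injured and 14 uninjured cells, and H2-Eb1 in 4 injured and 17 uninjured cells. Cells with 10 or more chain UMIs numbered 1 in the injured and 0 in the uninjured library. That injured cell held 7 H2-Aa, 17 H2-Ab1, 2 H2-Eb1 and 75 Cd74 UMIs, and with them 21.3% of all chain UMIs outside the injured marker cells. It had 0 gate UMIs, 43 microglia list UMIs, 123 UMIs of the secreted phosphoprotein gene Spp1 and 3 of Xist, the X-inactivation transcript. The highest uninjured cell outside the gate held 2 H2-Aa, 7 H2-Ab1, 0 H2-Eb1 and 33 Cd74 UMIs, beside 45 microglia list UMIs.

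With UMIs summed over cells, the chains also stood in different proportions in and outside the marker cells of the uninjured library. H2-Eb1 UMIs per H2-Ab1 UMI were 0.666 (0.554 to 0.798) in the 9 marker cells and 0.224 (0.124 to 0.382) in the others. H2-Aa per H2-Ab1 was 0.659 (0.548 to 0.791) in the marker cells and 0.197 (0.105 to 0.346) in the others. Cd74 UMIs per chain UMI were 1.83 (1.67 to 2.01) in the marker cells and 5.12 (4.16 to 6.35) in the others. The intervals inside and outside the marker cells did not overlap for any of these 3 proportions. They cover counting error of the sums, not spread between cells, and the sums leaned on the highest marker cells. The marker cells with 39 or fewer chain UMIs held 16, 14, 6, 4 and 2 H2-Ab1 UMIs. Beside these they held 6, 5, 2, 1 and 0 H2-Eb1 UMIs, a lower proportion than in the sum, and 17, 10, 3, 4 and 0 H2-Aa UMIs. In the injured library outside the marker cells, the proportions were 0.0472 (0.0150 to 0.114) for H2-Eb1, 0.104 (0.0503 to 0.193) for H2-Aa and 8.03 (6.65 to 9.78) for Cd74 per chain UMI. Barcodes with 5 or more UMIs of endothelial or oligodendrocyte precursor genes, and fewer UMIs of the microglia list than of those genes, should lack these transcripts. Class II chains and Cd74 were at 0 UMIs in the 6 injured (median 3258 UMIs) and 4 uninjured (median 1737 UMIs) barcodes of this kind. In the same barcodes an H2-DM UMI was found in 1 of 6 injured barcodes, which held 2, and in 1 of 4 uninjured barcodes, which held 1. Counts of 0 in so few barcodes allow shares of up to 45.9% in the injured and 60.2% in the uninjured library.

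Cd74 was the 1 member of 6 whose level outside the marker cells was higher in the injured library by more than the counting interval. It was detected in 295 of 536 injured cells (55.0%) and 220 of 686 uninjured cells (32.1%). Thinned to 1500 UMIs, the shares were 33.0% (29.0 to 37.2) of injured and 22.5% (19.2 to 26.1) of uninjured cells. The higher level was spread over many cells: 173 injured and 161 uninjured cells held 1 to 2 UMIs, 109 injured and 51 uninjured cells 3 to 9, and 13 injured and 8 uninjured cells 10 or more. These counts are unthinned, out of 536 injured and 686 uninjured cells, and deeper cells reach the higher classes more easily. Cd74 was counted with no chain UMI in 245 injured and 190 uninjured cells. The chains were at 43.2 CPM in injured and 52.5 CPM in uninjured cells, with medians of 4318 and 2991 UMIs per cell. At that level most cells would show no chain UMI, so a count of 0 does not show that a cell lacked the chains. Among cells with a chain UMI, 62.5% of injured and 36.1% of uninjured cells also had Cd74, against 53.7% of injured and 31.5% of uninjured cells without one. These shares are unthinned, and deeper cells can show both genes more often.

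Within each library, Cd74 differed between cells gated on other genes, with marker cells left out of each gate. Cells with 10 or more UMIs of Ccl4, a chemokine of activated microglia, numbered 288 in the injured and 187 in the uninjured library. In the injured library Cd74 was at 375 CPM (347 to 405) in these cells and 302 CPM outside them. In the uninjured library it was at 406 CPM (359 to 457) in these cells and 202 CPM outside them, a log2 difference of 1.01 (0.76 to 1.25). Cells with 5 or more UMIs of P2ry12, the purinergic receptor of resting microglia, numbered 229 in the injured and 558 in the uninjured library. In the injured library Cd74 was at 309 CPM in them and 372 CPM outside, and in the uninjured library at 236 CPM in them and 466 CPM outside. The 59 injured cells with a UMI of Gpnmb, a glycoprotein of lipid-laden phagocytes, had 192 CPM of Cd74, against 378 CPM in the other injured cells (log2 −0.98, −1.30 to −0.66), and the uninjured library had 0 such cells. The 205 injured cells with 10 or more Spp1 UMIs had 291 CPM, against 418 CPM in the others, even though the cell with 75 Cd74 UMIs was among them. In 79 injured cells with 5 or more UMIs of interferon-induced genes, Cd74 was at 304 CPM, against 356 CPM in the others (log2 −0.23, −0.49 to 0.02). In 39 injured cells with 5 or more UMIs of genes of dividing cells, Cd74 was at 252 CPM, against 359 CPM in the others (log2 −0.51, −0.86 to −0.18). The gates are UMI cut-offs, so they also sort cells by depth. Median UMIs inside and outside were 7786 and 4122 for Gpnmb and 7504 and 3624 for Spp1 in the injured library. For P2ry12 they were 3151.5 and 2039 in the uninjured and 4153 and 4386 in the injured library. Cells within a gate share 1 library, so these are differences between cells of that library.

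H2-DMa and H2-DMb1 were lower in the injured library by nearly the same ratios with and without the marker cells. Together they stood at 486 CPM (460 to 512) in injured and 675 CPM (640 to 712) in uninjured cells outside the gate, at −0.48 (−0.58 to −0.37). Their transcripts were spread over most cells, with a UMI of either gene in 79.5% of injured and 81.0% of uninjured cells and a maximum of 18 in an injured and 13 in an uninjured cell. Thinned to 1500 UMIs, H2-DMa was detected in 34.7% (30.7 to 39.0) of injured and 51.8% (47.7 to 55.9) of uninjured cells. H2-DMb1 was detected in 15.4% (12.4 to 18.7) of injured and 24.3% (20.9 to 28.0) of uninjured cells. Unthinned, H2-DMb1 was found in more injured cells (45.3%) than uninjured cells (39.2%), in the order of their depth and against the CPM, so no order is read from that pair. Over the whole libraries the 2 subunits kept their proportion, with 2.61 (2.32 to 2.93) H2-DMa UMIs per H2-DMb1 UMI in injured and 2.63 (2.34 to 2.96) in uninjured cells. In the marker cells alone it was 3.29 (2.13 to 5.21) in injured and 0.889 (0.491 to 1.60) in uninjured ones. The uninjured value rests on 24 H2-DMa and 27 H2-DMb1 UMIs. H2-DMb1 has a close paralog next to it, H2-DMb2, and how reads common to both were counted is not given in the sources used here.

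**Figure D4:**
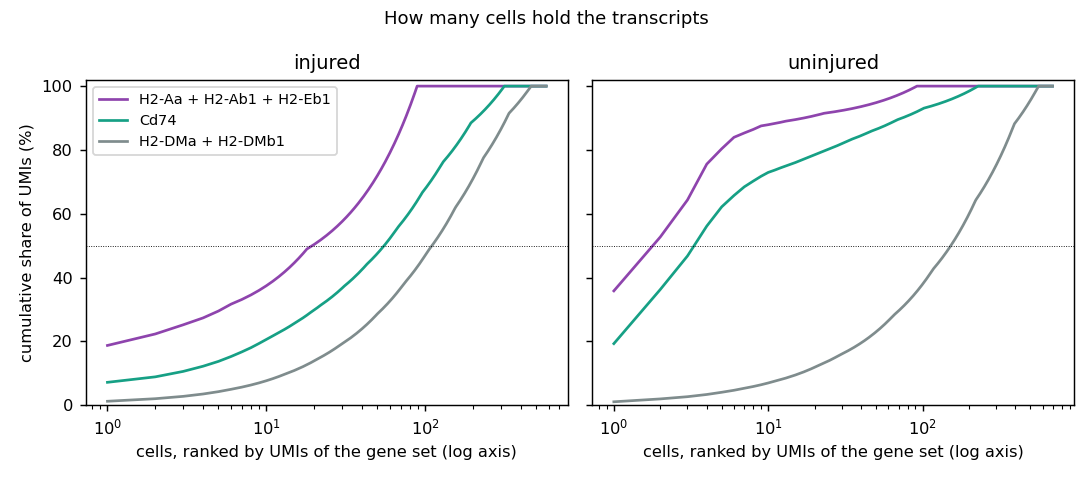
Cumulative share of UMIs (y axis, %) against cells ranked by their UMIs (x axis, logarithmic) in the injured (left) and uninjured (right) library, for the class II chains, Cd74 and the H2-DM genes. In the injured library 20, 56 and 111 cells reach 50% for the chains, Cd74 and H2-DM; in the uninjured library 2, 4 and 153 cells do.

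The genes whose counts ran most like the class II chains were sought cell by cell among 7251 genes of the injured and 6644 of the uninjured library. The measure was Pearson's r on log-scaled UMIs per 10000, as a description with no p. Over the 577 injured cells the closest were the guanylate-binding protein gene Gbp9 (0.20), Fgl2 (0.20), Zfp318 (0.18), Gpank1 (0.17), Wls (0.16), S100a4 (0.16) and Taf1 (0.16), too weak in such sparse counts to set them apart. Over the 695 uninjured cells the closest were Pf4 (0.58), a gate gene, Ifitm2 (0.47), Crip1 (0.37), Ms4a7 (0.34), also a gate gene, Lyz1 (0.33), Ifitm3 (0.33), Wfdc17 (0.32) and Cybb (0.32). Cd74 had 0.16 in the injured and 0.42 in the uninjured library. The uninjured values rest on the 9 marker cells, since without them the highest of 6594 genes, Dennd4b, reached 0.17.

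Cells of both sexes were present in unequal shares, and the split moved with the class II values. In the injured library 213 cells had Xist UMIs alone and 147 had Y-linked UMIs alone, while in the uninjured library 6 had Xist alone and 235 had Y-linked UMIs alone. Outside the marker cells, injured cells with Xist alone had 67.2 CPM of class II chains and those with Y-linked UMIs alone 30.9 CPM. The cells with Xist alone include the one of 26 chain UMIs. Among the Y-linked cells without Xist, the class II chains were at −1.50 over all cells and −0.99 without marker cells, with 23 UMIs in 136 injured and 49 UMIs in 234 uninjured cells. This restriction keeps 1 of the 9 uninjured marker cells, with 29 of their 702 chain UMIs. Neither kind of UMI was found in 200 injured and 452 uninjured cells, among them 7 of the 9 uninjured marker cells with 536 chain UMIs. Under the same restriction Cd74 was at −0.16 over all cells and 0.20 without marker cells. The H2-Ab1 ratio without marker cells was −0.59 under it, against 0.02 over cells of every kind. Animal, sex and injury cannot be told apart between these 2 libraries. The restriction still sets 1 library against 1 library, and it drops cells in which no Y-linked UMI was found.

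Other genes of the class II pathway were counted from a list of 47 genes that holds no member. Of these, 38 were measured in cells outside the gate, with 10 of 38 at least 2-fold lower and 6 of 38 at least 2-fold higher in the injured library, beside 11.3% and 7.06% of all measured genes. With TMM factors these counts were 8 lower and 7 higher, beside 8.42% and 8.70% of all genes, and with DESeq2 size factors 8 lower and 8 higher, beside 7.62% and 9.24%. Their median log2 ratio was −0.31, against −0.14 over all measured genes. The ratios that follow are log2 values without marker cells.

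Among transcription factors of the class II promoter, Ciita, the coactivator without which class II is not made, was at 0 UMIs in injured cells and 1 UMI in uninjured cells over the whole libraries, that 1 in a marker cell. At this depth its level could not be compared. Rfxank, a subunit of the X box factor, was at −1.38 (−2.26 to −0.54), with 19 UMIs in injured and 36 in uninjured cells. Creb1, which also binds the X box region, was at 0.24 (−0.20 to 0.70), and Nfya, a subunit of the Y box factor, at −0.64 (−1.11 to −0.17). The 3 measured class II relatives were all at least 2-fold lower at this scaling. They were H2-Oa at −1.04 (−1.38 to −0.70) and H2-Ob at −1.26 (−1.79 to −0.74), which form the H2-DM inhibitor H2-O, and H2-DMb2 at −1.64 (−2.50 to −0.83). H2-Oa did not reach 2-fold with TMM (−0.90) or DESeq2 factors (−0.86), while H2-Ob and H2-DMb2 did under both.

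The enzymes that process antigen and the invariant chain went both ways. Cathepsin S, Ctss, was at 8299 CPM in injured and 11996 CPM in uninjured cells (−0.53, −0.56 to −0.51). Ctsb was at 8388 CPM in injured and 2828 CPM in uninjured cells (1.57, 1.53 to 1.61), and Ctsz at 3942 CPM in injured and 1967 CPM in uninjured cells (1.00, 0.95 to 1.06). Ctsd was at 0.75 (0.73 to 0.78) and Ifi30, a reductase that unfolds antigen in lysosomes, at 0.83 (0.63 to 1.04). Both measured ubiquitin ligases that turn over class II were lower, March1 at −1.58 (−2.02 to −1.15) and March8 at −1.04 (−1.89 to −0.22), or −0.91 with TMM and −0.87 with DESeq2 factors. Cd83, which opposes March1, was at 0.30 (0.21 to 0.38).

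Of 6 measured costimulatory genes, Cd40 was higher at 1.86 (0.75 to 3.17), with 40 UMIs in injured and 8 in uninjured cells, and Icosl was lower at −1.30 (−1.66 to −0.95). Cd86 was at −0.23 (−0.41 to −0.05). In interferon-gamma signalling, the main inducer of class II, the receptor chain Ifngr1 was at −1.25 (−1.38 to −1.11). The transcription factor Irf1 was at −1.65 (−1.96 to −1.35). Il10ra is listed in the same role but encodes a receptor chain for interleukin-10, a class II-dampening cytokine. It was at −1.21 (−1.49 to −0.94). Mif, a Cd74 ligand, was at 644 CPM in injured and 168 CPM in uninjured cells (1.94, 1.77 to 2.11), while Ddt, from the same part of the list, was at −0.11 (−0.66 to 0.44). Of the listed co-receptors of Cd74, Cd44 was at 2.62 (1.72 to 3.67) with 93 UMIs in injured and 11 in uninjured cells. Cxcr4 was at 1.96 (0.68 to 3.51) with 32 UMIs in injured and 6 in uninjured cells. Cxcr2, with 7 UMIs in injured and 4 in uninjured cells, was too sparse to compare. Lag3, a class II ligand known from T cells, was at 404 CPM in injured and 786 CPM in uninjured cells (−0.96, −1.07 to −0.85).

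**Figure D5:**
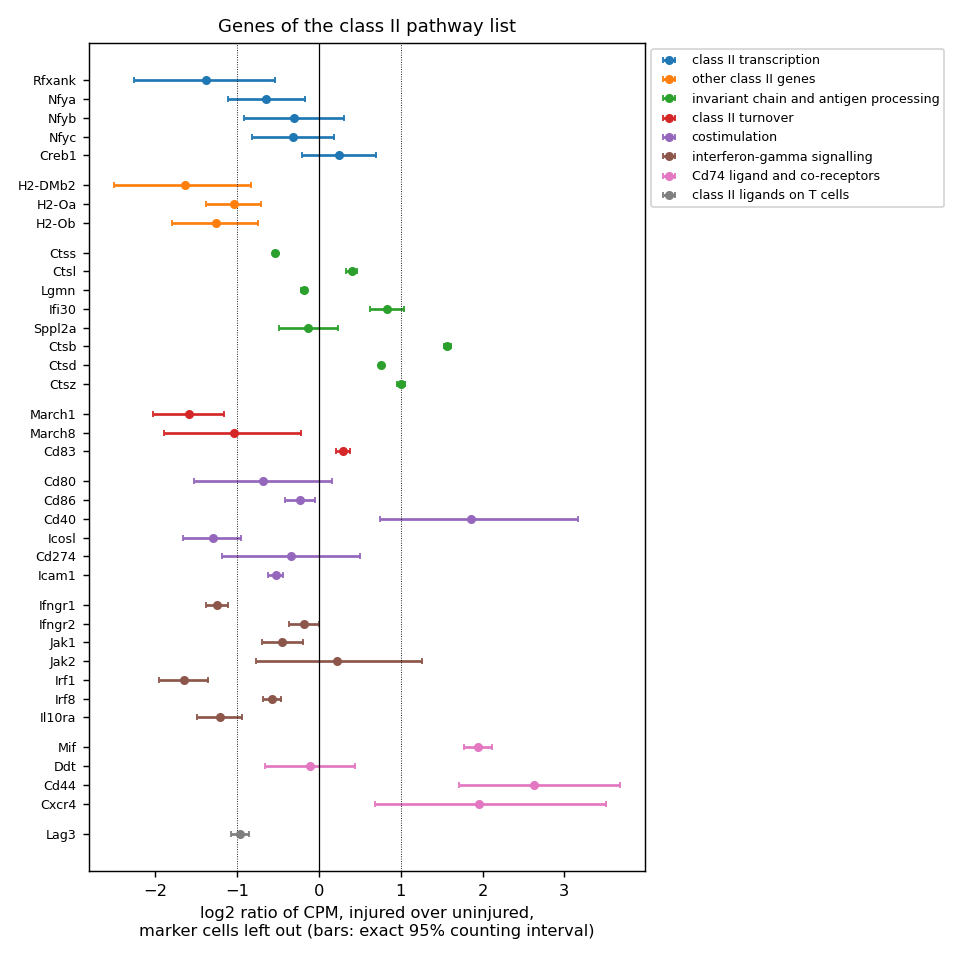
Log2 ratio of CPM, injured over uninjured, with marker cells left out (x axis), for measured genes of the class II pathway list that are reported here, coloured by role; bars are exact 95% counting intervals and dotted lines mark 2-fold. H2-DMb2, H2-Oa and H2-Ob lie left of −1, while Mif, Cd44 and Cxcr4 lie right of 1.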

How the data were processed

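The members and gene lists were chosen with earlier results of these data known. Per the labels' protocols, cords were digested with collagenase, tdTomato-positive cells were sorted with scatter gates against doublets, and 1 library per group was made with 10x Chromium 3′ version 2 chemistry. The authors deposited UMI counts, as whole numbers, for each gene in each barcode. The submitters' processing notes name STAR, Cell Ranger 2.0.1, Seurat 2.1.0 and GRCm38.p5. The annotation and strand settings are not stated there.

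Barcodes under 200 genes or over 10% mitochondrial UMIs were dropped, which left 577 of 580 injured and 695 of 705 uninjured barcodes, with 3095511 injured and 2093084 uninjured UMIs. No doublet caller was run. UMIs were summed over cells and scaled to CPM. Ratio intervals are Clopper-Pearson intervals of the injured share of a gene's UMIs. With UMI counts in 1 library per group, no count model was fitted. Shares used cells thinned to 1500 UMIs. Named genes are the 6 members, pathway genes past 2-fold or else the 2 with the most UMIs in a role, others of the list being added after their values were seen, and the 8 genes most like the chains. Values of some genes that this rule covers are not reported here. Ratio code was tested on simulated data. Python 3.11.15, SciPy 1.17.1, edgeR 4.0.16 and DESeq2 1.42.0 (scaling factors only) were used.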

Additional observations from a re-analysis of the deposited data

How the results depend on the processing

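No ratio over all cells changed direction under another scaling, barcode filter or thinning, when the top cell of each library was left out, or in cells with Y-linked UMIs alone. TMM factors added 0.15 and DESeq2 size factors 0.19 to every log2 ratio over all cells, and 0.14 and 0.18 without marker cells. With TMM factors, Cd74 over all cells was −1.22, H2-DM −0.37 over all cells and −0.34 without marker cells, and the pathway list median −0.18 and −0.17. With DESeq2 factors, Cd74 was −1.19 over all cells and 0.55 without marker cells, H2-DM −0.33 and −0.30, and the list median −0.14 and −0.13. Both factors, a comparison added after seeing the data, took H2-Oa and March8 inside 2-fold. Thinned to 1500 UMIs, the class II chains over all cells were −2.74, Cd74 −0.95 and, without marker cells, 0.62, and H2-DM −0.68 and −0.66. As means over cells, the chains were −2.79, and Cd74 −0.98 and 0.60. Without the top cell of each library, the chains were −2.77 and Cd74 −1.17 over all cells, and H2-Aa −2.16 and H2-Ab1 −0.09 without marker cells. In cells with Y-linked UMIs alone, the chains were −1.50 and −0.99, Cd74 −0.16 and 0.20, and H2-Ab1 without marker cells −0.59. With the gate at 5 UMIs, the uninjured cell of 290 chain UMIs stays in, since it has 4, and the values without marker cells became −2.20 for the chains, −0.30 for Cd74 and −1.46 for H2-Ab1. An alternative added after seeing the data, leaving out only marker cells with under 10 microglia list UMIs per 1000, changed no direction of the summed chains, Cd74 or summed H2-DM, and H2-Ab1 alone was at −0.03 under it, against 0.02. No paired analysis was possible because each group has 1 library. Depth limits the chains most: outside the marker cells H2-Eb1 rests on 5 injured and 17 uninjured UMIs.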
